A study of Mus musculus with 24 samples.

Results

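The miR-130 and miR-301 family is a group of microRNAs (miRNAs) that share the sequence with which a miRNA recognises its target mRNAs. The nCounter panel, which counts fluorescent barcodes hybridized to each miRNA without amplification, held 4 members among its 566 mouse miRNAs: mmu-miR-130a, mmu-miR-130b, mmu-miR-301a and mmu-miR-301b. They were taken by name alone, and all 24 samples were used. The study followed JygMC(A) cells, a mouse mammary carcinoma line that metastasizes to the lung and that had been tagged with GFP and luciferase, after injection into the mammary fat pad of BalbC nude mice. Laser capture took 5 samples from carcinoma areas and 7 from spindle-shaped, EMT-like areas of the primary tumors (together called PT), and 4 from lung metastases. Mammary gland labelled normal (NMG, n = 2) and lung parenchyma labelled normal (n = 2) came from the same nude strain, and the cells were also grown as a monolayer (n = 2) and as third-generation 3D-spheres (n = 2). All tumor samples therefore descend from a single cell line in a T-cell deficient host. The mice were females of 6 to 9 weeks. Normal lung and NMG with the same replicate number share an animal number. The labels call the samples of a group biological replicates. Carcinoma replicate 1, EMT-like replicate 1 and lung metastasis replicate 1 each carry the names of the same 3 animals, and most tumor animals gave more than 1 sample. A sample of tissue holds several cell types, so fewer cells of a type and less of a miRNA per cell cannot be told apart in any of the values that follow.

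A miRNA guides the silencing machinery to mRNAs that pair with its seed, the bases close to its 5′ end, and lowers their stability and translation. Members of a seed family can therefore bind many of the same mRNAs. In earlier work miR-130a was linked to vascular endothelial cells and blood vessel growth, the family was tied to remodelling of lung vessels, and miR-301a and miR-130b were studied as growth-promoting miRNAs in tumors, with the nuclear receptor PPARG among the reported targets of the family.

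The sequences show why the 4 are treated together, and how far they differ. RefSeq (build GRCm38.p6) lists the 3p strand of 3 members, which carries the family seed. The panel names give no strand. The seed, bases 2 to 8, is in capitals, and each line is written 5′ to 3′.
miR-130a-3p: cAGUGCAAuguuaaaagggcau
miR-130b-3p: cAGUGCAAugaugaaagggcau
miR-301a-3p: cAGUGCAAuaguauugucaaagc
Mature miR-130a and miR-130b, each of 22 bases, matched at 20 positions and differed by U11A and A13G, counted from the 5′ end with the base of miR-130a first. The sequence of miR-301a, 23 bases long, matched miR-130a over the first 9 bases and at 12 of the 22 positions compared. The genes lie at 3 places. The mature miR-130a maps to chr2:84741116-84741137 on the minus strand, with no other annotated gene spanning its hairpin, and miR-301a maps to chr11:87113054-87113076 on the plus strand, within the span of Ska2, a gene of the kinetochore. The mature miR-130b maps to chr16:17124071-17124092 on the minus strand. The hairpins of Mir130b and Mir301b lie 257 bases apart on that strand, both within the span of 2610318N02Rik. Whether these positions fall in exons or introns is not given in the tables used here. The mature 3p strand of miR-301b is not listed in the table, and the hairpin at chr16:17124400-17124496 is shown in its place, with the seed letters AGUGCAA, found once in it, in capitals.
Mir301b hairpin: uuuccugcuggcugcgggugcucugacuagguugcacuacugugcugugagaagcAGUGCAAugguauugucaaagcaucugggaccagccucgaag
The table holds 7 mature mouse miRNAs with this seed. The 4 others, miR-130c, miR-721, miR-6341 and miR-6389, were not found among the probe names of the panel.

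The depth of the lanes differed widely. The sum of the mouse miRNA values lay between 110552 and 183539 in PT, 61497 and 114004 in lung metastasis, 525225 and 559660 in NMG, and 24418 and 44953 in the cultures, and was 589588 and 2334955 in normal lung. Values were therefore put on a common scale with factors from a trimmed mean of log ratios (TMM) and are called normalized values. A miRNA was taken as detected when its deposited value exceeded the mean plus 2 SD of the negative control probes, a limit of 4 to 21.4 counts per lane. Of the marker miRNAs, the epithelial list (miR-200 family, miR-203 and miR-205, 7 in all) summed to 930 to 5385 in carcinoma, 59.4 to 1758 in EMT-like areas and 2509 to 4671 in lung metastasis. In the cultures 5 of these 7 were under the limit in both monolayer lanes and all 7 in both sphere lanes, while miR-203 passed the limit in both monolayer lanes and miR-205 in 1, each with deposited values of at most 22. The ranges of carcinoma and EMT-like areas overlapped.

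miR-130a was the most widely spread member, highest in normal lung and NMG, intermediate in tumors and lowest in cultured cells. It was above the detection limit in 24 of 24 lanes. The lanes of normal lung held normalized values of 3007 and 3055, and those of NMG held 1590 and 1286. In carcinoma they were 443, 372, 521, 451 and 745 in replicates 1 to 5, and in EMT-like areas they ran from 322 through a median of 558 to 681. Every tumor sample lay below every normal sample. Lung metastases held 253, 353, 349 and 583, within or just under the PT range. The monolayer lanes gave 398 and 46.9, the sphere lanes 87.1 and 99.1, so 1 of 4 culture lanes reached the level of the tumors. The deposited values, before any scaling, had the same order of groups, with 3463 to 17214 in the normal tissues, 185 to 903 in tumors and 23 to 256 in cultures.

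miR-130b, although nearly identical in sequence, had a different order, with tumors above normal tissues. It too was detected in 24 of 24 lanes. Normalized miR-130b reached 45.3 and 26.7 in the NMG lanes, and 52.0 and 50.8 in those of normal lung. It was 181, 180, 178, 88.7 and 121 in carcinoma, ran from 92.7 through a median of 115 to 143 in EMT-like areas, and was 119, 111, 212 and 115 in lung metastasis. Every tumor sample was above every normal sample on this scale. The cultures fell between the tumors and the normal tissues or within the latter, at 83.9 and 67.3 for the monolayer lanes, 40.1 and 66.9 for the sphere lanes, with 1 sphere lane inside the range of the normal tissues. On the deposited scale this separation was absent, since tumor samples held 58 to 186 and normal samples 72 to 286, in lanes whose miRNA sums differed several-fold.

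miR-301a varied less among the tissues, from 55.2 to 272, and was low in culture. NMG held normalized values of 168 and 130, normal lung 243 and 272. It was 180, 181, 192, 110 and 144 in carcinoma, and 146, 193, 234 and 143 in lung metastasis. EMT-like areas ran from 55.2 through a median of 93.4 to 153, and 5 of these 7 samples lay below both NMG samples. In the monolayer miR-301a was 38.8 and 48.9, from deposited values of 25 and 24 that barely passed the limit. Both sphere lanes were under the limit, with deposited values of 14 and 11.

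miR-301b was at or near background throughout. Its deposited value passed the limit in 1 of 24 lanes, normal lung replicate 2, at 26 against a limit of 19.5, in the lane with the highest miRNA sum. In the other 23 lanes the deposited values ran from -12 to 4. No fold change is given for miR-301b. The detected neighbour at the same locus, miR-130b, had a deposited value of 286 in that lung lane.

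**Figure D1:**
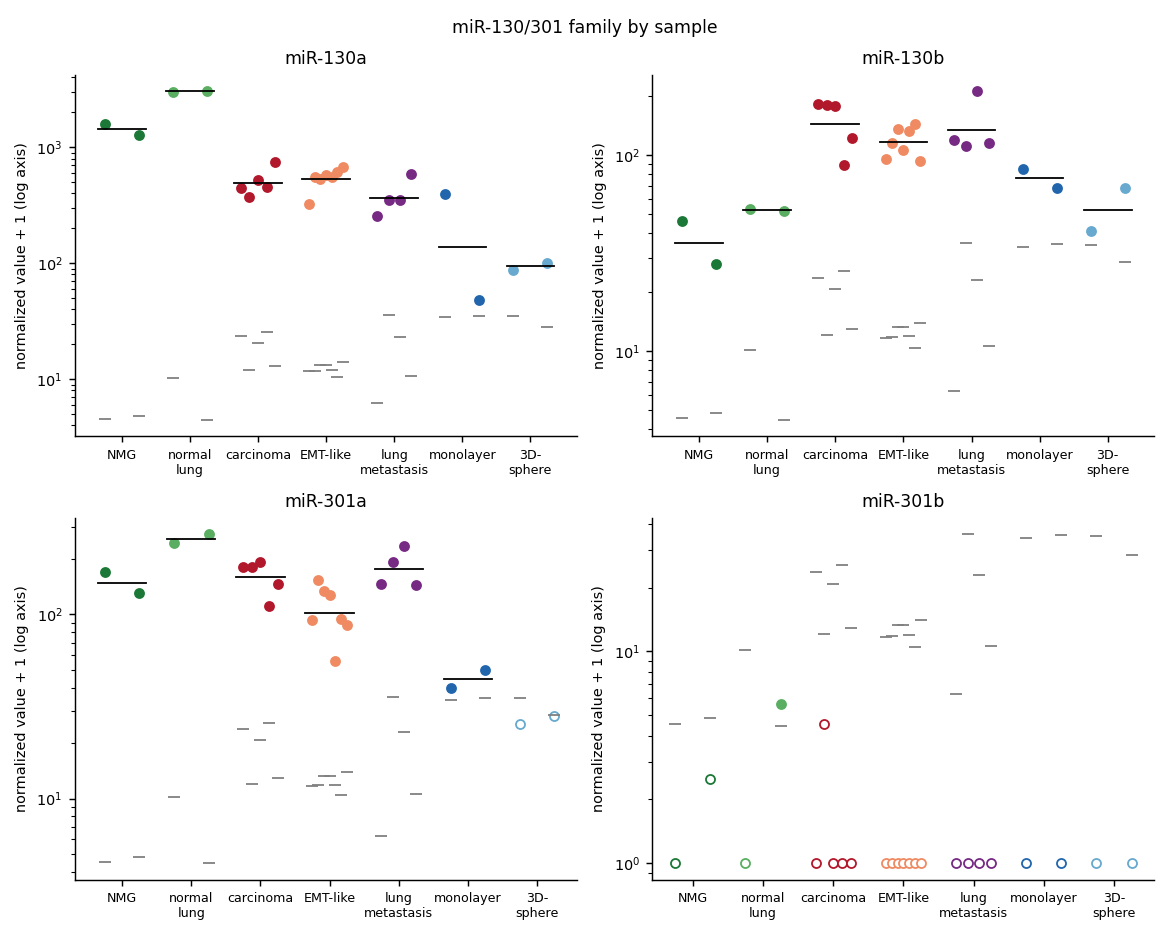
Normalized value plus 1 (log axis) of the 4 members in each of the 24 samples, by group; filled points are above the detection limit of their lane, open points are not, grey dashes mark that limit, and black lines are geometric means of groups with all samples detected. The normal samples lie above all tumor samples for miR-130a (1286 to 3055 against 253 to 745) and below them for miR-130b (26.7 to 52.0 against 88.7 to 212).

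Primary tumors were compared with NMG to ask which miRNAs differ between malignant and normal mammary tissue. In carcinoma areas miR-130a was 0.345 times its level in NMG and miR-130b was 4.05 times its level, while miR-301a stood at 1.07 times. In EMT-like areas the same members stood at 0.374, 3.25 and 0.684 times the NMG level. The log2 fold change in carcinoma was -1.54 for miR-130a (standard error 0.50, limma adjusted p = 0.0235) and 2.02 for miR-130b (standard error 0.34, adjusted p = 8.95e-05). In EMT-like areas it was -1.42 for miR-130a (standard error 0.48, adjusted p = 0.0307) and 1.70 for miR-130b (standard error 0.32, adjusted p = 0.000354). For both members, 12 of 12 PT samples lay on the same side of both NMG samples. The log2 fold change of miR-301a was 0.10 in carcinoma (95% confidence interval -0.60 to 0.79, limma adjusted p = 0.950) and -0.55 in EMT-like areas (-1.21 to 0.11, adjusted p = 0.245).

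Thus 1 member was called higher and 1 lower of the 4 in each comparison. Of the 583 probes tested, 5.49% were called higher in carcinoma than in NMG and 23.8% lower (29.3% in all). For the EMT-like areas these shares were 4.46% and 20.4% (24.9% in all). Probes whose groups did not overlap made up 38.8% and 34.6% of all, so the lack of overlap of miR-130a and miR-130b is frequent in these comparisons. Both comparisons share the NMG samples. Of 183 probes with a mean of at least 20, 31 were called higher and 55 lower in carcinoma, and 24 and 60 in EMT-like areas. The median log2 fold change of the 3 detected members was 0.10 in carcinoma and -0.55 in EMT-like areas, beside -0.25 and -0.50 for these abundant probes.

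The calls against NMG depended on how lanes were made comparable. The direction of both miR-130a and miR-130b was kept under all 5 scalings run. When lanes were scaled to the 100 most abundant miRNAs or to the sum of all miRNAs, miR-130a was no longer called (log2 fold changes -1.11 and -1.09 in carcinoma with limma adjusted p = 0.0562 and 0.0671, -0.78 and -0.77 in EMT-like areas with 0.175 and 0.193), so 1 member was higher and 0 lower. With no scaling, miR-130b was no longer called (0.47, adjusted p = 0.437, and 0.54, adjusted p = 0.385), and miR-301a was called lower (-1.47, adjusted p = 0.0111, and -1.73, adjusted p = 0.00309), so 0 members were higher and 2 lower. With the 4 mRNA control probes, miR-130b was at 1.16 (adjusted p = 0.140) and 0.69 (0.415), and 0 members were higher and 1 lower. The median of all 583 probes moved with these scalings by 0.33, 0.35, -1.15 and -0.58 in carcinoma and by 0.30, 0.30, -0.86 and -0.70 in EMT-like areas, in the same order of scalings. With 2 NMG samples, the call of miR-130a was also lost when a sample was left out, at folds of similar size. Without NMG replicate 1 the log2 fold change was -1.38 in carcinoma (adjusted p = 0.177) and -1.27 in the EMT-like group (0.232). Without NMG replicate 2 it was -1.69 (0.0980) and -1.57 (0.125), the spread of the lone NMG sample being borrowed from the other groups. In EMT-like areas it was -1.30 without EMT-like replicate 1 (0.0519). With a higher background subtracted, it was -1.59 (0.0600) in carcinoma and -1.45 (0.0748) in EMT-like areas.

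Most marker miRNAs of the endothelial, smooth muscle, erythroid, mesenchymal and leukocyte lists moved in the same direction as miR-130a. The summed normalized value of both arms of miR-126, a miRNA of endothelial cells, was 10971 to 17649 in NMG, 67772 to 70140 in normal lung, 1067 to 2626 in PT and 819 to 3114 in lung metastasis, and both arms were called lower in each comparison of tumor with normal tissue. The smooth muscle pair miR-143 and miR-145 summed to 6039 to 7591 in NMG, 9932 to 13953 in normal lung, 765 to 1689 in PT and 688 to 1086 in lung metastasis. Of the 3 erythroid markers, 3 were called lower in both tumor areas than in NMG, where they summed to 8118 to 8509 against 83.7 to 297 in PT. Of the 3 mesenchymal markers 2 were called lower, with 8645 to 9125 in NMG and 882 to 2844 in PT, and of the 4 leukocyte markers 3 were, with 2500 to 5613 in NMG and 230 to 812 in PT. The fourth leukocyte marker, miR-142-5p, was called higher in carcinoma (log2 fold change 1.21, limma adjusted p = 0.0213) and stood at 0.60 in EMT-like areas (adjusted p = 0.278). The epithelial and skeletal muscle lists were mixed against NMG. For carcinoma, 1 of 7 epithelial and 2 of 4 skeletal muscle markers had a call of lower. For EMT-like areas 4 and 1 had this call, and 0 were called higher in either area. In carcinoma miR-200b (log2 fold change 0.45), miR-200c (0.61), miR-429 (0.33) and miR-206 (0.42) lay above 0. In EMT-like areas miR-206 did (1.51). The remaining markers of these lists lay below 0. The part of all these markers in the lower miR-130a of tumors was not tested. In the cultures both arms of miR-126 were at 0. At deposited values of 23 to 256, miR-130a was above the limit in 4 of 4 culture lanes. On the normalized scale 3 of these lanes lay below every PT sample. How these values relate was not tested.

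Lung metastases were set against normal lung, which came from other animals than the metastases. miR-130a showed its largest difference here, at 0.121 times the level of normal lung (log2 fold change -3.04, standard error 0.52, limma adjusted p = 5.37e-05). miR-130b stood at 2.57 times the level of normal lung (1.36, standard error 0.35, adjusted p = 0.00336). miR-301a was lower in 4 of 4 metastases than in both lung samples but was not called (-0.55, 95% confidence interval -1.27 to 0.17, limma adjusted p = 0.202). With 1 member higher and 1 lower of 4, the background was 7.03% of probes called higher and 42.2% lower (49.2% in all), and 48.5% of probes had groups that did not overlap. Among the 183 abundant probes, 32 were called higher and 80 lower. The median of the 3 detected members was -0.55, beside -0.97 for the abundant probes.

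The lower miR-130a in metastasis was called under all 5 scalings, with log2 fold changes from -5.55 to -1.56. For the other members the scaling decided the direction. miR-130b was at 2.79 with the 100 most abundant miRNAs, at -0.77 with no scaling (limma adjusted p = 0.178) and at -1.12 with the mRNA controls (0.106), and with a higher background subtracted it missed the threshold (adjusted p = 0.0502). miR-301a was called higher with the 100 most abundant miRNAs (0.91, adjusted p = 0.0486) and with the miRNA total (0.92, adjusted p = 0.0444), and lower with no scaling (-2.69, adjusted p = 3.50e-05) and with the mRNA controls (-3.05, adjusted p = 0.000728). The first pair of scalings thus gave 2 members higher and 1 lower, and the second pair gave 0 higher and 3 lower, where the 3 include miR-301b, which was not detected in metastasis. These scalings moved the median of all probes by 0.74, 0.74, -1.43 and -1.72, in the order 100 most abundant, miRNA total, no scaling and mRNA controls.

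**Figure D2:**
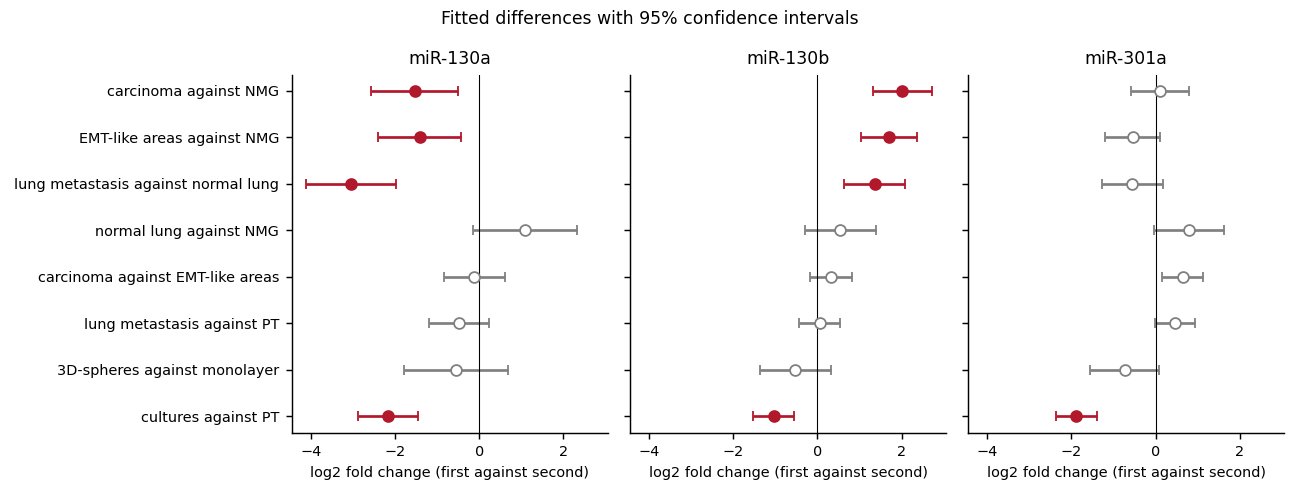
Log2 fold change of the first against the second group (points) with its 95% confidence interval (bars) for the 3 detected members in 8 comparisons; red points had a limma adjusted p under 0.05 over 583 probes. miR-130a and miR-130b lie on opposite sides of 0 against both normal tissues, and all 3 members lie below 0 in cultures against PT.

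**Figure D3:**
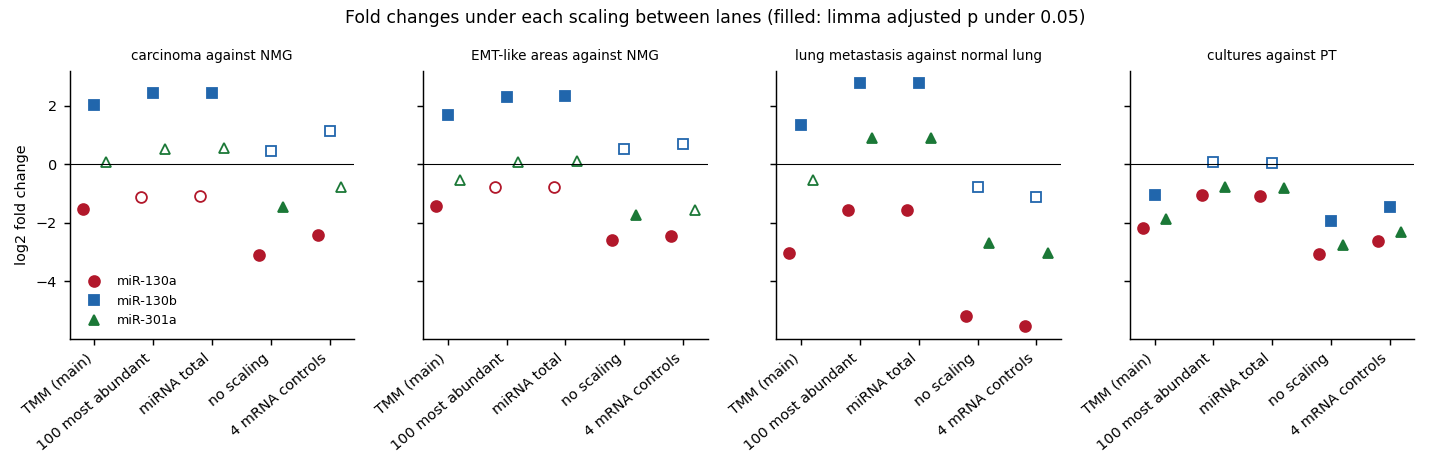
Log2 fold change of the 3 detected members under 5 scalings between lanes in 4 comparisons; filled symbols had a limma adjusted p under 0.05. miR-130a stays below 0 in every panel, whereas miR-130b in lung metastasis against normal lung turns from 1.36 with TMM to -1.12 with the mRNA controls.

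On the TMM scale the normal tissues differed from each other in the same direction for all 3 detected members. Normal lung was higher than NMG in 2 of 2 animals for each, by 0.92 and 1.25 on the log2 scale for miR-130a. None was called, at log2 fold changes of 1.08 for miR-130a (limma adjusted p = 0.274), 0.55 for miR-130b (0.466) and 0.79 for miR-301a (0.220). Of all probes, 11.7% were called, 10.5% higher and 1.20% lower, and 49.9% had groups of 2 that did not overlap. With scaling by the mRNA controls miR-130a was called (2.33, adjusted p = 0.0261). With the 100 most abundant miRNAs the direction was not shared, as miR-130b was at -0.31 and miR-301a at -0.086, neither of them called. The drop in miR-130a from normal lung to metastasis was larger than that from NMG to PT by -1.56 on the log2 scale (standard error 0.69). This difference, tested in the same fit after the data were seen, was not called (limma adjusted p = 0.161, with 11.3% of probes called, 0.686% higher and 10.6% lower) except with the mRNA controls (-3.12, adjusted p = 0.00985).

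Carcinoma and EMT-like areas were compared to ask what distinguishes the epithelial from the spindle-shaped regions of a primary tumor. No member was called (0 of 4, with 0.172% of all probes called by limma, 1.03% without overlap, and 81 of 583 at an unadjusted p under 0.05). miR-301a showed the widest difference, 1.56 times higher in carcinoma (log2 fold change 0.64, 95% confidence interval 0.16 to 1.13, unadjusted p = 0.0115, limma adjusted p = 0.197), and 3 of 5 carcinoma samples lay above every EMT-like sample. miR-130b was at 0.32 (-0.17 to 0.81, adjusted p = 0.583) and miR-130a at -0.12 (-0.84 to 0.61, adjusted p = 1). The animal labels fall into a lettered and a numbered series. Within these, miR-301a was 0.63 and 0.41 higher in carcinoma, miR-130a was at 0.057 and -0.015, and miR-130b was 0.78 higher in the lettered series and -0.21 in the numbered one. In the 4 blocks of animals with both areas, miR-301a was higher in carcinoma in 3, miR-130b in 3 and miR-130a in 2. The epithelial marker list, of which miR-141 followed miR-301a most closely, had a median log2 fold change of 2.79 between these areas with 0 of 7 called, and its part in the values of miR-301a was not tested.

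Lung metastasis was compared with PT to ask what changes at the distant site. No member was called (0 of 4), and the groups overlapped for each. Of all probes, 2.74% were called by limma, 0.515% higher and 2.23% lower, and 2.06% had groups that did not overlap. miR-130a was at 0.717 times the PT level (log2 fold change -0.48, 95% confidence interval -1.20 to 0.24, adjusted p = 0.673), miR-130b at 1.04 times (0.052, -0.43 to 0.54, adjusted p = 1) and miR-301a at 1.38 times (0.47, -0.012 to 0.95, adjusted p = 0.355). In the 4 blocks of animals that had both (1 of them the block of 3 animals), the shifts away from the EMT-like areas ran one way for each member. Metastasis against EMT-like areas alone was not a fitted comparison. The share of all probes that ran one way in these blocks was not counted, so the counts that follow are descriptions only. Metastasis was below the EMT-like area of the same animals in 4 of 4 for miR-130a, by -0.80 to -0.22 on the log2 scale. It was above it in 4 of 4 for miR-130b, by 0.065 to 0.56, and in 4 of 4 for miR-301a, by 0.60 to 1.31. Within the lettered series, which holds 1 metastasis, the difference from PT was -0.77 for miR-130a and -0.016 for miR-301a, and within the numbered series it was -0.49 and 0.76. The 2 blocks of animals that also had a carcinoma sample did not share this pattern for each member. Metastasis was below carcinoma in 2 of 2 for miR-130a, by -1.08 and -0.81, and in 2 of 2 for miR-130b, by -0.61 and -0.13, and miR-301a was higher in 1 metastasis and lower in 1. Marker miRNAs of other cell types also differed between metastasis and PT. Of the 3 mesenchymal markers, miR-199a-3p and miR-199a-5p were called lower (log2 fold changes -1.42 and -1.37). Called higher were 1 of 4 leukocyte markers (miR-150, 2.65), 1 of 3 erythroid (miR-451, 1.49) and 1 of 7 epithelial (miR-203, 2.40). In these last lists, the leukocyte miR-223 (-0.65) and the epithelial miR-205 (-0.52) lay below 0 and the remaining members above 0, none of them called. By contrast, 0 of 2 endothelial, 0 of 2 smooth muscle and 0 of 4 skeletal muscle markers were called. Their part in the values of the members was not tested.

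The ratio of members within a lane does not depend on the scaling. The probes may differ in efficiency, so a ratio is read only between lanes. The deposited value of miR-130a was 9.46 and 9.87 times that of miR-301a in NMG and 12.4 and 11.3 times in normal lung. It was 2.06 to 5.16 times (median 2.71) in carcinoma, 3.51 to 9.97 times (median 4.50) in EMT-like areas and 1.49 to 4.08 times (median 1.78) in lung metastasis. All carcinoma and metastasis samples had a lower ratio than all normal samples, and 1 EMT-like sample overlapped NMG. In the monolayer the ratio was 10.2 and 0.958, and in the spheres it could not be formed because miR-301a was under the limit.

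Differences in this ratio were compared by exact two-sided permutation tests with Benjamini-Hochberg adjustment over 7 comparisons, and none passed 0.05. PT is here the pool of its 12 samples. The tests permuted lanes as if they were independent, although samples of different groups share animals. Exact means only that all splits of the lanes were counted, and the p do not take the pairing into account. The mean log2 ratio differed by -1.01 between metastasis and PT (exact p = 0.0176, adjusted 0.123) and by -0.77 between carcinoma and EMT-like areas (exact p = 0.0455, adjusted 0.159). The latter was -0.57 within the lettered and -0.43 within the numbered series. Without lung metastasis replicate 4, which had the highest ratio of its group, the first difference was -1.33 with an adjusted exact p of 0.0308. In the 17 other alternative settings the adjusted exact p did not pass 0.05 and reached up to 0.194. Within animals the ratio was lower in metastasis than in the EMT-like area in 4 of 4, by -2.12 to -0.94 on the log2 scale, and lower in carcinoma in 2 of 4. Against normal tissue the differences were -1.64 for carcinoma, -0.87 for EMT-like areas and -2.50 for metastasis, in designs whose smallest exact p is 0.0952, 0.0556 and 0.133, and the exact p were 0.0952, 0.111 and 0.133. Normal lung and NMG differed by 0.29 (exact p = 0.333, the smallest that this design allows), and the monolayer and PT by -0.45 (exact p = 0.527).

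The ratio of miR-130a to its near-identical partner miR-130b separated the tissues most widely. It was chosen after the values of both were known and is given without a test. It was 35.1 and 48.1 in NMG and 57.8 and 60.2 in normal lung, against 2.07 to 7.34 in the 12 PT samples and 1.65 to 5.06 in the 4 metastases. The lowest normal sample therefore stood well above the highest tumor sample in lanes that had not been scaled at all. Cultured cells had ratios of 4.74 and 0.697 (monolayer) and 2.17 and 1.48 (3D-spheres), within and below the tumor range. In the same animals it was lower in metastasis than in the EMT-like area in 4 of 4, by -1.37 to -0.54 on the log2 scale.

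**Figure D4:**
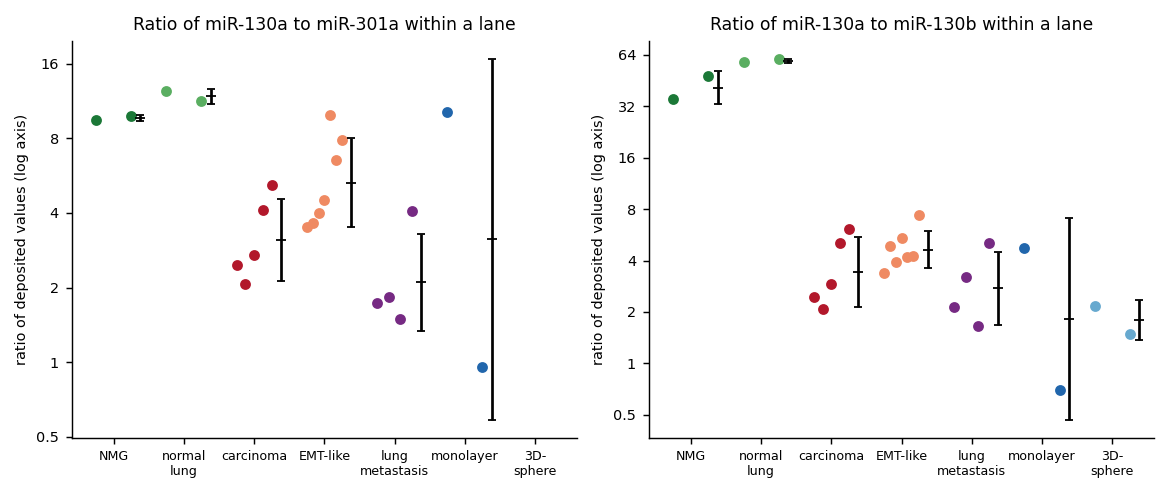
Ratio of the deposited values of miR-130a to miR-301a (left) and to miR-130b (right) within a lane (log axis), by group, for lanes with both miRNAs above the detection limit; black marks are the mean ± SD of the log2 ratio. The 4 normal samples lie at 35.1 to 60.2 for miR-130a to miR-130b, above all 16 tumor samples at 1.65 to 7.34.

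The cultured cells were compared with the tumors they form. All 3 detected members were lower in culture, miR-130a at 0.222 times the PT level (log2 fold change -2.17, standard error 0.34, limma adjusted p = 2.75e-05), miR-130b at 0.488 times (-1.04, standard error 0.23, adjusted p = 0.00138) and miR-301a with the smallest p (adjusted p = 7.43e-07). Both sphere lanes were under the limit for miR-301a. With the sphere lanes set to their limit, its level in PT was at least 3.40-fold higher than in the cultures on the TMM scale. Among the 183 probes with a mean of at least 20 over all lanes, 105 were called lower and 18 higher. Most lanes are tissue, so a probe can enter this set through its tissue values alone. The count was 3 of 4 lower, against 21.8% of all probes lower and 8.58% higher (30.4% called in all). Groups did not overlap for 15.1% of probes. The median of the detected members was -1.88, beside -1.36 for the abundant probes. Markers of other cell types were lower in culture as well, called for 2 of 2 endothelial, 2 of 2 smooth muscle, 2 of 3 mesenchymal, 2 of 3 erythroid, 2 of 4 leukocyte and 5 of 7 epithelial miRNAs, while 1 leukocyte and 2 of 4 skeletal muscle markers were called higher. Their part in the lower values of the members was not tested. For miR-130b and miR-301a every culture lane lay below every PT sample. For miR-130a this held for 3 of 4 lanes, and monolayer replicate 1 lay within the PT range. Without it the log2 fold change of miR-130a was -2.94 (adjusted p = 2.79e-09), and without monolayer replicate 2 it was -1.41 (adjusted p = 0.000104). The lower miR-130b was not seen when lanes were scaled to the 100 most abundant miRNAs (0.10, adjusted p = 0.863) or to their total (0.037, adjusted p = 1), where 2 members were called lower. With these scalings miR-301a was still called, at smaller log2 fold changes of -0.76 and -0.82. Of all probes, they called 146 and 144 higher and 85 and 87 lower.

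The monolayer cultures differed from each other. miR-130a was 8.32-fold higher in replicate 1 than in replicate 2, rank 12 of the 151 miRNAs above the limit in either, whereas the log2 difference was 0.31 for miR-130b and -0.33 for miR-301a. No member was called between 3D-spheres and monolayer (0 of 4, with 4.63% of probes called, 2.92% higher and 1.72% lower, and 23.2% without overlap), at log2 fold changes of -0.56 for miR-130a (95% confidence interval -1.79 to 0.68, limma adjusted p = 0.994) and -0.53 for miR-130b (-1.37 to 0.31, adjusted p = 0.739). The value of miR-130a rested on the monolayer lanes. The log2 fold change was -2.09 without monolayer replicate 2 (adjusted p = 0.00255) and 0.97 without monolayer replicate 1 (adjusted p = 0.306). Each of these fits has a lone monolayer lane, whose spread is borrowed from the other groups, although the monolayer lanes themselves differed 8.32-fold.

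Across the 24 samples the members did not follow each other closely. Pearson's r of log2 normalized values was 0.68 between miR-130a and miR-301a, 0.29 between miR-130b and miR-301a and -0.15 between miR-130a and miR-130b. Over the 16 tumor samples alone these were -0.34, 0.54 and -0.15. Samples share animals and groups and differ in depth, so these are descriptions. Among 195 candidate miRNAs detected in at least 12 samples, those most like miR-130a were miR-16 of the miR-15/16 family (r = 0.952), miR-450a-5p (0.952) and the smooth muscle miRNA miR-143 (0.950). Over the 16 tumor samples alone, r was 0.72, 0.71 and 0.30. Those most like miR-130b were miR-9 (0.75), miR-466g (0.735) and miR-93 of the miR-106b/25 cluster (0.735), with 0.46, -0.03 and 0.70 in the tumor samples. Those most like miR-301a were miR-340-5p (0.930), miR-141 of the epithelial miR-200 family (0.913) and miR-19a of the miR-17/92 cluster (0.905), and these stayed close in the tumor samples, at 0.94, 0.82 and 0.93.

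The miR-148 and miR-152 family stands beside this family because its seed is the same run of letters moved by 1 base. Its members begin with an extra u, so that their bases 2 to 8, CAGUGCA, equal bases 1 to 7 of miR-130a.
miR-148a-3p: uCAGUGCAcuacagaacuuugu
miR-152-3p: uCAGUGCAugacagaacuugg
Of its 3 members, miR-148b and miR-152 were called lower than in NMG in both carcinoma (log2 fold changes -1.75 and -1.85, limma adjusted p = 0.0212 and 0.0199) and EMT-like areas (-2.09 and -1.55, adjusted p = 0.00533 and 0.0443), the direction of miR-130a and not that of miR-130b. The third, miR-148a, was at -1.08 (adjusted p = 0.485) and -2.26 (adjusted p = 0.0828). In lung metastasis against normal lung, 0 were called higher and 2 lower, where 42.2% of all probes were lower. In cultures against PT all 3 were called lower, where 21.8% of all probes and 105 of the 183 abundant ones were. Each of the 3 was above the detection limit in only 1 of 2 monolayer lanes and in 0 of 2 sphere lanes.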

How the data were processed

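Material from laser-captured tissue and from cultured cells had been assayed by the study on the nCounter mouse miRNA panel. The paper states that RNA was purified from lysates for its miRNA analysis. The deposited values are in a unit of their own, counts from which the authors subtracted, lane by lane, the average of 6 negative controls, so that 35.2% of the miRNA values lie below 0. They are not scaled between lanes. The submitters' notes name Partek. Here values were floored at 0 and scaled by TMM (30% of log ratios and 5% of levels trimmed, with carcinoma replicate 2 as reference). log2(value + 1) was fitted with limma with trend (R 4.3.3, limma 3.58.1) on all 24 samples and 7 groups, with Benjamini-Hochberg adjustment over the 583 mouse and viral probes that exceeded 0 anywhere. Calls are at an adjusted p under 0.05. In the limma fit PT is the mean of the carcinoma and EMT-like groups, and in the ratio tests it is their 12 samples pooled. Ratios used the deposited values, with exact permutation tests in scipy 1.17.1 that ignored the sharing of animals between groups. A log2 fold change is on the log2(value + 1) scale. The members, lists and tests were chosen with earlier results of these data known. Named beside the members were, for each, the 3 most correlated miRNAs. Samples of an animal share a block: over 183 probes the median correlation of their deviations from group means was 0.140 (12 pairs, -0.296 to 0.424). Precision is limited by 2 samples in 4 groups and by values near the limit. No replicate pair of a group shared more than 9.18% of identical values.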

Additional observations from a re-analysis of the deposited data

Results flagged for a closer look

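Of 15 sets of tumor samples examined (the 3 detected members and 2 ratios in 3 groups), 2 held a sample far from the others, where chance gives about 1 in 20. Normalized miR-130a in EMT-like replicate 1 was 322, the lowest of 7, and its gap to the next sample was 0.66 of the range of the group on the log2 scale. Normalized miR-130b in lung metastasis replicate 3 was 212, the highest of 4, with a gap of 0.895 of the range. Without the first, the lower miR-130a of EMT-like areas against NMG missed the threshold (log2 fold change -1.30, limma adjusted p = 0.0519). Without the second, miR-130b in metastasis against PT was at -0.17 in place of 0.05, and neither value was called (limma adjusted p = 0.970 and 1).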

How the results depend on the processing

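Of the 4 members, 0 were called between carcinoma and EMT-like areas under any setting run. Against NMG, the 2 calls of carcinoma became 1 when lanes were scaled to the 100 most abundant miRNAs, the miRNA total or the mRNA controls, and those of EMT-like areas became 1 with the same scalings and with TMM against EMT-like replicate 2, a setting added after seeing the data. Leaving out a sample gave 1 to 2 calls in both. With the higher background both kept a count of 2, but with miR-130a no longer called and undetected miR-301b called higher. For metastasis against PT and normal lung against NMG, the higher background gave 1 call, that of miR-301b. It was undetected in metastasis and PT, and passed the limit in 1 of 2 normal lung lanes. The floor of 1 given to lanes under that background differs between lanes after scaling. The mRNA controls gave 1 call for normal lung against NMG. Spheres against monolayer gave 0 to 1 when a sample was left out. The ratio of miR-130a to miR-301a in metastasis against PT ran from -1.33 to -0.85 when a sample was left out, and that of cultures against PT from -2.13 to 1.23, and was 0.52 with the higher background.

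Most values that turned sign were not called, and those that were are named as such. With no scaling, miR-130b was at -0.069 in carcinoma against EMT-like areas and -0.48 in metastasis against PT, where miR-301a was at -0.063. In metastasis against normal lung miR-130b was at -0.77, and miR-301a in carcinoma against NMG was called at -1.47. With the mRNA controls, miR-130a was at 0.032 in carcinoma against EMT-like areas and 0.13 in spheres against monolayer, miR-130b at 0.15 in spheres against monolayer, -0.25 in metastasis against PT and -1.12 against normal lung, and miR-301a at -0.78 in carcinoma against NMG. With the 100 most abundant miRNAs and the miRNA total, miR-301a was at 0.086 and 0.098 in EMT-like areas against NMG, called at 0.91 and 0.92 in metastasis against normal lung, and at -0.086 and -0.079 in normal lung against NMG. With the same settings miR-130b was at -0.31 and -0.30 in normal lung against NMG and 0.096 and 0.037 in cultures against PT. The difference between the lung and mammary sites turned to 0.42 and 0.40 for miR-130b and 0.61 and 0.60 for miR-301a. With the higher background miR-301a was at -0.052 in carcinoma against NMG, where leaving out a sample gave -0.087 (without NMG replicate 2) to 0.28. With TMM against EMT-like replicate 2, miR-130b in metastasis against PT was at -0.13, within the lettered series at -0.21, and from -0.17 to 0.14 when a sample was left out. There miR-301a was at -0.016 within the lettered series. In carcinoma against EMT-like areas miR-130a was at 0.038 with a term for the animal series and 0.057 within the lettered series, and miR-130b at -0.21 within the numbered one. In spheres against monolayer, leaving out a sample gave -2.09 to 0.97 for miR-130a. The cause of these turns was not tested.

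With the animal or culture as a random replicate block, no member call changed, but the estimated correlation within blocks was -0.0051, so that this fit hardly differs from the one without the block. With it as a fixed block, added after seeing the data, 0 members were called where groups share animals, and miR-130a turned to 0.036 in carcinoma against EMT-like areas. The pairing of tissue samples was taken from the animal labels. For the cultures, monolayer and sphere lanes with the same replicate number were put in the same block. miR-301b passed the limit in 1 of 24 lanes and miR-301a in 2 of 4 culture lanes, and the cause of these low values was not tested.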
